A study of Macaca mulatta with 19 samples.

Results

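Testosterone was compared with control in luteinized granulosa cells of rhesus macaques (Macaca mulatta) that ate standard chow, using 8 of the 19 libraries of the series: 4 labelled Chow+T and 4 labelled Chow+C, chosen by their treatment label. Chow+T females carried implants of testosterone, which raised the hormone 4 to 5 fold above the cholesterol implants of Chow+C; both groups were treated from about menarche for roughly 3.5 years and ate the same diet. The design was a 2 by 2 factorial with 10 animals per treatment, of which 7 to 10 entered controlled ovulation cycles, and the contents of the single naturally selected periovulatory follicle were aspirated. The other 11 libraries, 5 WSD+C and 6 WSD+T, come from females on a Western-style diet and enter here through the shared estimate of spread, some alternative fits, the mitochondrial gene counts and 1 comparison of differences. No age is given in the labels, no sort of the aspirated cells is named, and each library carries the class of the oocyte from its follicle.

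Granulosa cells surround the oocyte and, after the ovulatory gonadotropin surge, luteinize: they turn from making oestrogen towards making progesterone, loosen their matrix and support the last steps of oocyte meiosis. Testosterone is an androgen, made in the ovary by theca cells, and granulosa cells convert androgens to oestrogens with aromatase. An oocyte arrested at the germinal vesicle (GV) stage has not resumed meiosis, one at metaphase I (MI) is part way, and one at metaphase II (MII) is mature.

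Oocyte class and treatment cannot be told apart in these 8 libraries. Chow+C 1, 2 and 3 came with an MI oocyte and Chow+C 4 with an MII oocyte, whereas Chow+T 1 came with a degenerating oocyte, Chow+T 2 and 3 with MII oocytes and Chow+T 4 with a GV oocyte. No Chow+T library has an MI oocyte, and only the MII class occurs in both groups, in 1 Chow+C and 2 Chow+T libraries. An alternative fit quoted below holds oocyte class as a term over all 19 libraries. Chow+T 4 is the only GV library among them, so the GV term takes it out of the comparison. The other class terms rest in part on the Western-style diet libraries, and that fit does not separate class from treatment.

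The 8 libraries were granulosa cell libraries by their markers, with unequal amounts of blood-cell RNA. All 10 granulosa markers found in the table, among them STAR, CYP11A1, CYP19A1 and INHA, were at 1 CPM (gene counts scaled to library size with TMM, the trimmed mean of M values) or more in all 8 libraries, and their summed level was 7801 to 14020 CPM in Chow+C and 6275 to 16490 CPM in Chow+T. Summed erythroid markers, mostly the globins HBB and HBA2, were at 3437, 77.1, 19.2 and 3321 CPM in Chow+C 1 to 4 and at 44.6, 35.3, 2372 and 447 CPM in Chow+T 1 to 4. Red cell markers were high in Chow+C 1, Chow+C 4 and Chow+T 3, intermediate in Chow+T 4 and low in the other 4 libraries, without a split by treatment. Summed leukocyte markers were at 67.2, 18.5, 13.4 and 57.3 CPM in Chow+C and at 8.71, 120.4, 26.7 and 19.9 CPM in Chow+T. Macrophage and monocyte markers were at 15.4 to 24.5 CPM in 7 of the libraries and at 159.7 CPM in Chow+T 2, the 1 library in which all 13 markers found, including CD163, MRC1 and the C1Q chains, reached 1 CPM. In bulk RNA, fewer cells of a type and less RNA per cell cannot be told apart.

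**Figure D1:**
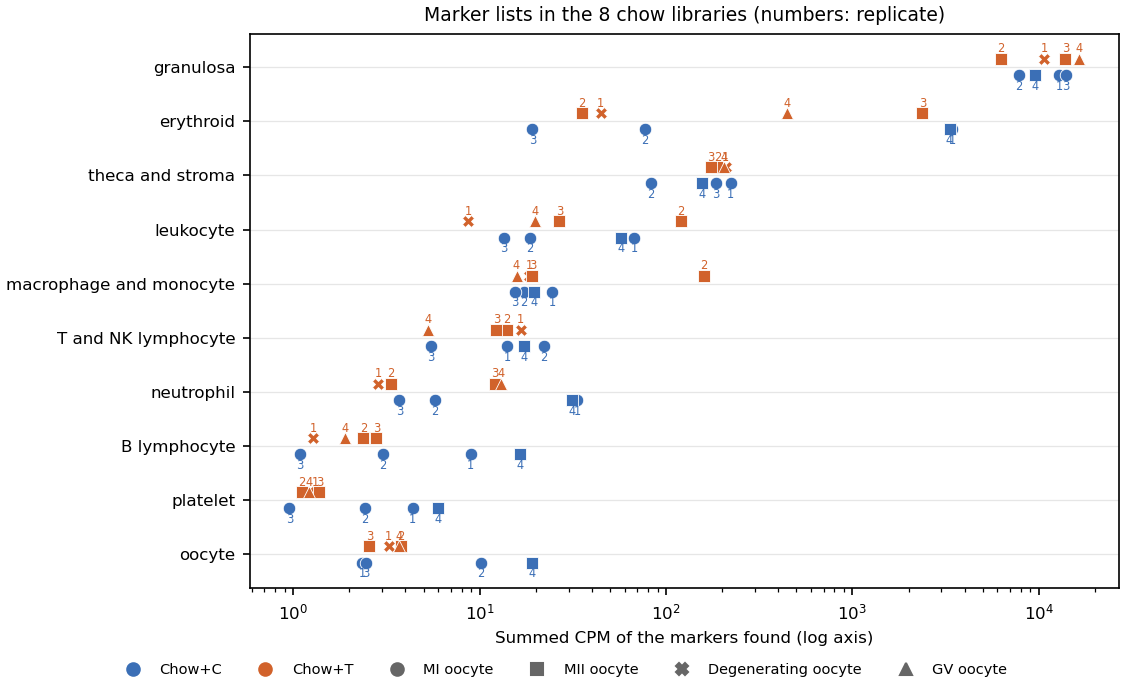
Summed CPM of the markers found for 10 cell types (log axis) in each of the 8 chow libraries; each point is 1 library, coloured by treatment, shaped by oocyte class and numbered by replicate. Granulosa markers lie between 6275 and 16490 CPM in every library, erythroid markers spread from 19.2 to 3437 CPM, and Chow+T 2 stands apart at 159.7 CPM for macrophage and monocyte markers.

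B lymphocyte and neutrophil markers leaned to the control side without separating the groups. B lymphocyte markers summed to 8.94, 3.01, 1.08 and 16.4 CPM in Chow+C 1 to 4 and to between 1.28 and 2.79 CPM in Chow+T. Neutrophil markers summed to 33.3, 5.73, 3.71 and 31.3 CPM in Chow+C and to 2.86, 3.33, 12.1 and 13.0 CPM in Chow+T. Chow+C 1 and Chow+C 4 were the highest libraries for both lists, and Chow+C 3 lay below every Chow+T library for B lymphocytes. T and NK lymphocyte markers summed to 5.48 to 22.1 CPM in Chow+C and 5.28 to 16.6 CPM in Chow+T, with GNLY the largest member in each library. Oocyte markers summed to 19.2 CPM in Chow+C 4, to 10.2 CPM in Chow+C 2 and to between 2.35 and 3.78 CPM in the other 6 libraries. In Chow+C 4, 6 of them reached 1 CPM, with BMP15 at 3.61 CPM, ZP2 at 3.08 CPM and NLRP5 at 1.84 CPM; BMP15, an oocyte growth factor, was at 0 in 5 of the other libraries. The part of any of these cell types in the results below was not tested beyond the covariates named there.

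Gene counts per library were 28832132 to 54804607, with means of 35630000 (SD 5905000) in Chow+C and 44780000 (SD 6911000) in Chow+T. An exact two-sided permutation test of this difference gave p = 0.0857, or 0.214 adjusted over 3 library measures. The smallest p that 70 arrangements allow is 0.0286, and with 4 libraries per group the result does not show equal depth. Chow+C 2 stood apart: its share of reads counted in genes was 49.1%, beside 59.6 to 69.1% for the other 7, its share outside annotated genes was 33.5%, beside 18.7 to 28.9%, and 17.9% of its gene counts were mitochondrial, against 1.05 to 6.99%. The mitochondrial share is not a plain measure of cell state here. MT-CO3, a mitochondrially encoded subunit of cytochrome oxidase, had 191 and 419 reads in Chow+C 1 and Chow+C 3 and 169 in Chow+T 2, but 176889 to 803617 reads in the other 5 chow libraries, whereas MT-CYB, the mitochondrially encoded cytochrome b, had 203839 to 1164450 reads in all 8. By MT-CYB and MT-CO2 alone, which were well counted in every library, Chow+C 2 was still highest, at 6.90% of gene counts against 0.94 to 2.62%.

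No gene passed an adjusted p of 0.05 in the comparison of Chow+T with Chow+C. By edgeR's quasi-likelihood test with Benjamini-Hochberg adjustment, 0 of 15019 tested genes (0.0%) passed and the smallest adjusted p was 0.388. Without adjustment, 348 genes were higher in Chow+T at p under 0.05, 2.32% of all tested, and 731 were lower, 4.87%, together 1079 where chance alone gives 751. DESeq2, a second count test, called 4 genes, SDC4, MLF1 and FHL2 higher and ZNF212 lower, and limma-voom called 0 with 311 higher and 421 lower at an unadjusted p under 0.05. The fitted log2 difference reached 1 or more in 462 genes and -1 or less in 1257, and the median 95% confidence interval of a gene extended 0.81 to either side on the log2 scale.

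Counting genes whose groups did not overlap gives another view of the replicate spread. Every Chow+T library lay above every Chow+C library in 199 genes, 1.32% of those tested, and below in 200 genes, 1.33%. Differences were positive in 7233 of the 15019 tested genes, 48.2%. The counts for gene lists below are to be read against these shares.

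The 15 genes of smallest p with higher means in Chow+T, chosen on this contrast and so given as a description, included adhesion, translation and chromatin genes. SDC4 encodes syndecan-4, a heparan sulfate proteoglycan of the cell surface that works with integrins at focal adhesions. It was at 19.7, 14.8, 15.1 and 15.3 CPM in Chow+C 1 to 4 and at 37.1, 41.6, 68.4 and 34.25 CPM in Chow+T 1 to 4. Every Chow+T library lay above every Chow+C library, and the fitted difference was 1.48 on the log2 scale (SE 0.26, 95% confidence interval 0.93 to 2.04, edgeR adjusted p = 0.388). DESeq2 gave an adjusted p of 0.00105 for it. Leaving out each chow library in turn moved the difference between 1.22 and 1.60.

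MLF1, named for a fusion in myeloid leukaemia, had the next smallest p. Its levels were 6.38, 1.56, 5.38 and 2.44 CPM in Chow+C 1 to 4 and 20.9, 28.15, 34.9 and 5.69 CPM in Chow+T 1 to 4. Chow+T 4, the GV library, lay within the control range and the other 3 Chow+T libraries lay above it. The fitted difference was 2.51 (SE 0.50, edgeR adjusted p = 0.658, DESeq2 adjusted p = 0.00105).

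FHL2 is a LIM-only protein that binds integrins and takes part in transcription as a cofactor. It was at 53.7, 23.4, 14.95 and 26.9 CPM in Chow+C 1 to 4 and at 107, 61.4, 104.8 and 101.7 CPM in Chow+T 1 to 4. The groups did not overlap, but Chow+C 1 and Chow+T 2 came close to each other, and the fitted difference was 1.66 (SE 0.36, edgeR adjusted p = 0.658, DESeq2 adjusted p = 0.0188).

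ETF1 encodes the release factor that ends translation at stop codons. Its levels were 86.5, 64.0, 75.4 and 84.3 CPM in Chow+C and 147.4, 131.2, 216.8 and 89.6 CPM in Chow+T, with Chow+T 4 just above the highest control. The fitted difference was 0.92 (SE 0.22, edgeR adjusted p = 0.658). ARID5B, a DNA-binding partner of a histone demethylase, was at 169.4, 149.6, 190.4 and 372 CPM in Chow+C and at 480, 526, 1043 and 361 CPM in Chow+T. Here the MII control, Chow+C 4, was the highest control and lay above Chow+T 4, and Chow+T 3 was highest of all.

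NUFIP2, an RNA-binding protein, ABL2, a tyrosine kinase that acts on the actin skeleton, OTUD1, a deubiquitinase, PHF13, a reader of histone methylation, KLF16, a zinc finger regulator, and MAFF, a small Maf factor, shared one arrangement: Chow+T 1, 2 and 3 lay above all 4 controls and Chow+T 4 lay among or below them. MAFF was at 57.3 to 68.02 CPM in the 4 Chow+C libraries, at 144.9, 130.5 and 190.7 CPM in Chow+T 1 to 3 and at 55.5 CPM in Chow+T 4. ABL2 was at 20.4 to 40.9 CPM in Chow+C, at 90.3, 89.3 and 270.0 CPM in Chow+T 1 to 3 and at 18.4 CPM in Chow+T 4. Chow+T 4 was the lowest of the Chow+T libraries in 11 of the 15 genes and Chow+T 3 the highest in 10. Over all 15019 tested genes these counts were 3559 and 3128.

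TLN2 (talin 2, which ties integrins to actin), RASSF9, NHSL1 and SNX16 (an endosomal sorting nexin) did not overlap between the groups, which makes 7 non-overlapping genes of the 15. TLN2 was at 26.4, 38.1, 16.6 and 32.6 CPM in Chow+C and at 85.8, 130.1, 46.0 and 65.3 CPM in Chow+T. SNX16 was at 2.88 to 3.24 CPM in Chow+C and at 4.49, 5.53, 18.2 and 4.19 CPM in Chow+T, and its fitted difference of 1.42 was 0.65 without Chow+T 3. In all 15 genes both MII libraries of Chow+T lay above the MII library of Chow+C, an arrangement that 28.4% of all tested genes had; the 15 were chosen on the same libraries.

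**Figure D2:**
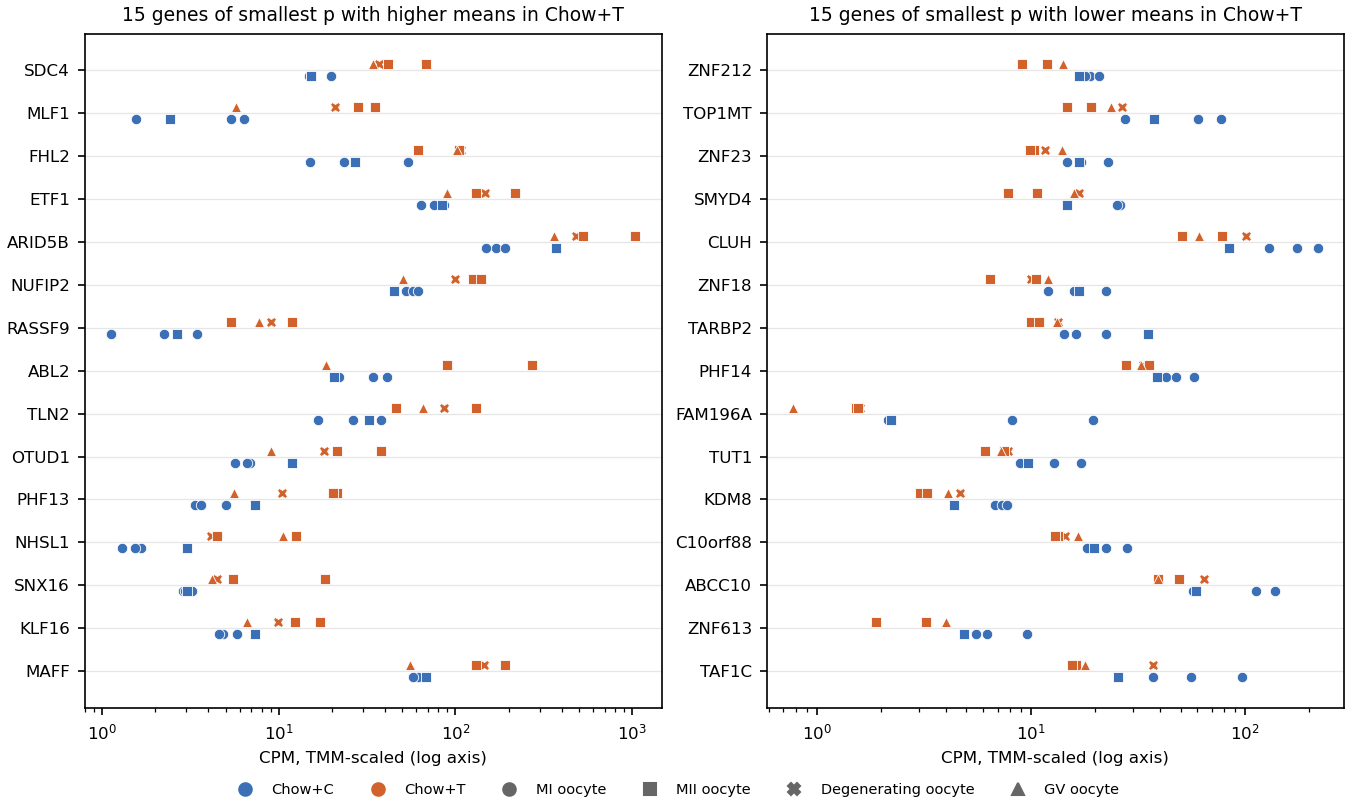
CPM (TMM-scaled, log axis) in each of the 8 chow libraries for the 15 genes of smallest p with higher means (left) and lower means (right) in Chow+T; points are libraries, coloured by treatment and shaped by oocyte class. SDC4 and FHL2 do not overlap between groups. Chow+T 4 (triangle) is the lowest Chow+T library in 11 of the 15 genes on the left, and in 3559 of all 15019 tested genes. On the right Chow+C 2 is the highest library in 10 of 15, and in 27.4% of all tested genes.

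The 15 genes of smallest p with lower means in Chow+T held 4 zinc finger genes, ZNF212, ZNF23, ZNF18 and ZNF613, beside genes of varied function. ZNF212 was at 18.99, 20.8, 17.9 and 16.8 CPM in Chow+C 1 to 4 and at 12.1, 11.9, 9.07 and 14.15 CPM in Chow+T 1 to 4, with no overlap. Its fitted difference was -0.66 (SE 0.16, edgeR adjusted p = 0.658, DESeq2 adjusted p = 0.0259).

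TOP1MT encodes the topoisomerase of mitochondrial DNA. It was at 27.7, 76.9, 60.55 and 37.7 CPM in Chow+C and at 26.8, 19.1, 14.7 and 23.8 CPM in Chow+T, so that Chow+C 1 and Chow+T 1 nearly met, and the fitted difference was -1.27 (SE 0.32), or -0.99 without Chow+C 2. CLUH, which binds messenger RNAs of mitochondrial proteins, was at 128.9, 218.1, 175.0 and 84.6 CPM in Chow+C and at 101.2, 50.95, 78.5 and 61.3 CPM in Chow+T. The MII control was the lowest of the 4 controls and lay below Chow+T 1.

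TARBP2, the partner of Dicer in microRNA processing, was at 14.3, 22.5, 16.3 and 35.1 CPM in Chow+C and at 13.4, 10.1, 10.9 and 13.2 CPM in Chow+T; its difference of -0.89 was -0.57 without Chow+C 4. TUT1, which adds uridines to small RNAs, was at 8.88 to 17.2 CPM in Chow+C and 6.10 to 7.87 CPM in Chow+T, and TAF1C, a subunit of the RNA polymerase I initiation factor, at 25.6 to 96.8 and 15.5 to 37.1 CPM. SMYD4, PHF14, FAM196A, KDM8, C10orf88 and ABCC10 complete the 15, of which 9 did not overlap. In all 15 both MII libraries of Chow+T lay below the MII library of Chow+C, an arrangement that 31.1% of all tested genes had; these 15 too were chosen on the same libraries.

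The number of lower genes depended on single libraries. Chow+C 2 was the highest control in 591 of the 731 genes with lower means, a set chosen on these libraries, and in 5194 of all 15019 tested genes, and 179 of the 731 stayed lower at an unadjusted p under 0.05 without it. Without Chow+C 2 there were 260 higher and 272 lower genes at that p. Chow+T 3 was the highest Chow+T library in 217 of the 348 higher genes, again chosen on these libraries, and in 3128 of all tested genes, and 154 higher and 341 lower genes were left without Chow+T 3. The 15 higher and 15 lower genes described above kept their sign in every alternative that was run. All 30 stayed at an unadjusted p under 0.05 without Chow+C 2. They were chosen for a small p on these same libraries, which makes both results likely, so neither is independent support.

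Adhesion genes had more positive than negative differences. Of 26 tested genes of integrin adhesion and LIM proteins, 16 had a positive difference, 4 were higher at an unadjusted p under 0.05 and 0 lower, 4 lay above without overlap and 0 below, and the median difference was 0.18 on the log2 scale beside -0.02 over all tested genes. FHL2 and TLN2, already among the 15 genes chosen on this contrast, are in these counts. LIMS1 (PINCH, which couples integrin-linked kinase to the skeleton) was at 55.5, 80.4, 66.4 and 90.05 CPM in Chow+C and at 107.4, 113.6, 106.9 and 109.5 CPM in Chow+T. The 4 Chow+T values lay close together and above all controls, and the fitted difference was 0.58 (SE 0.19, edgeR adjusted p = 0.658). FERMT2 (kindlin-2) was at 122.8 to 160.6 CPM in Chow+C and at 169.5 to 216.5 CPM in Chow+T, and PARVA (parvin alpha) at 134.1 to 199.8 and 170.1 to 230.0 CPM. Of 22 genes of syndecans and heparan sulfate synthesis, 18 were positive, with a median of 0.22. SDC4, also among the 15 genes chosen on this contrast, and the glypican GPC6 (78.2 to 143.3 CPM in Chow+C, 149.7 to 219.3 CPM in Chow+T) did not overlap.

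Translation factors also had mostly positive differences. Of 22 tested genes of initiation, elongation and release, 16 had positive differences, 4 were higher at an unadjusted p under 0.05 and 0 lower, 3 lay above without overlap, and the median was 0.27, or 0.15 without Chow+C 2. ETF1 and NUFIP2, already among the 15 higher genes chosen on this contrast, are in these counts. PABPC1, the poly(A)-binding protein, was at 378, 240.9, 344.8 and 480 CPM in Chow+C and at 496, 533, 643 and 546 CPM in Chow+T, and EIF4G2, an initiation factor, at 1022 to 1454 and 1533 to 1698 CPM. The 76 tested ribosomal protein genes were positive in 72 cases with a median of 0.30 (0.04 with oocyte class as a term), but none was at an unadjusted p under 0.05. Chow+C 2 was the lowest library in 69 of them, 90.8%, beside 28.6% of all tested genes, and the median was 0.07 without that library. The 54 nuclear-encoded subunits of the respiratory chain and ATP synthase had 47 positive and a median of 0.19, or 0.04 without Chow+C 2.

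Coactivators and chromatin regulators that work with steroid receptors were positive in 17 of 25 cases, with 5 higher and 1 lower at an unadjusted p under 0.05 and a median of 0.33. ARID5B, already among the 15 higher genes chosen on this contrast, is in these counts. EP300, a histone acetyltransferase that serves many nuclear receptors, was at 192.9 to 226.9 CPM in Chow+C and at 275.0, 277.8, 306.0 and 231.4 CPM in Chow+T. Its paralog CREBBP was at 77.5 to 110.5 CPM in Chow+C and at 119.5, 141.7, 174.4 and 102.6 CPM in Chow+T, so that only EP300 of the pair did not overlap. JMJD1C, a JmjC-domain protein, was at 27.1 to 48.3 CPM in Chow+C and at 48.5, 111.6, 162.1 and 33.8 CPM in Chow+T. NCOA2, a p160 coactivator, differed by 0.50 (SE 0.18) and NCOR1, a corepressor, by 0.20 (SE 0.14); SMARCA4, the ATPase of a chromatin remodeller, differed by -0.32 (SE 0.14).

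Genes known to be induced by androgen overlapped between the groups, with 1 exception. FKBP5, a chaperone and classic androgen target, was at 261.0, 526, 250.9 and 390.5 CPM in Chow+C and at 425.5, 430.2, 443 and 362 CPM in Chow+T, a difference of 0.22 (95% confidence interval -0.65 to 1.09). Of 23 tested genes of this kind 10 had positive differences, 0 were at an unadjusted p under 0.05, HERC3 lay above without overlap (11.2 to 13.8 against 14.02 to 19.7 CPM), and the median was -0.06. For the whole list of 24 genes from which these came, the median was -0.05, or 0.42 with oocyte class as a term. It was -0.10 without Chow+T 3 and 0.21 without Chow+C 2, so it had no stable direction.

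The main genes of steroid synthesis overlapped widely between the groups. STAR, which brings cholesterol into mitochondria, was at 5809, 1888, 4779 and 1001 CPM in Chow+C and at 1896, 394, 3076 and 4259 CPM in Chow+T, with a difference of -0.49 (95% confidence interval -2.05 to 1.08). CYP11A1, which cuts the cholesterol side chain, was at 573 to 937 CPM in Chow+C and 164.6 to 1250 CPM in Chow+T. CYP19A1, the aromatase, was at 408, 91.8, 1266 and 355 CPM in Chow+C and at 326, 160.8, 767 and 492 CPM in Chow+T. In each of these 3 genes the groups overlapped, and libraries of 1 group differed several fold.

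HSD3B2, which makes progesterone from pregnenolone, was at 220.2 to 1380 CPM in Chow+C and at 488, 22.8, 284 and 425 CPM in Chow+T; its lowest library was Chow+T 2, which also had the lowest STAR and CYP11A1 and the highest macrophage markers, and the part of cell content in this was not tested. The list of 18 tested steroid synthesis genes had 6 positive differences and a median of -0.29, which was -0.12 without Chow+T 2 and 0.03 with oocyte class as a term in the fit. Its 2 members at an unadjusted p under 0.05 were CYP17A1, the enzyme of androgen synthesis that is typical of theca cells, at 0.99 to 2.08 CPM in Chow+C and 0.47 to 0.73 CPM in Chow+T, and SRD5A1, a 5-alpha reductase, at 1.41 to 4.48 and 1.28 to 1.83 CPM. Both were near the low end of what was counted.

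**Figure D3:**
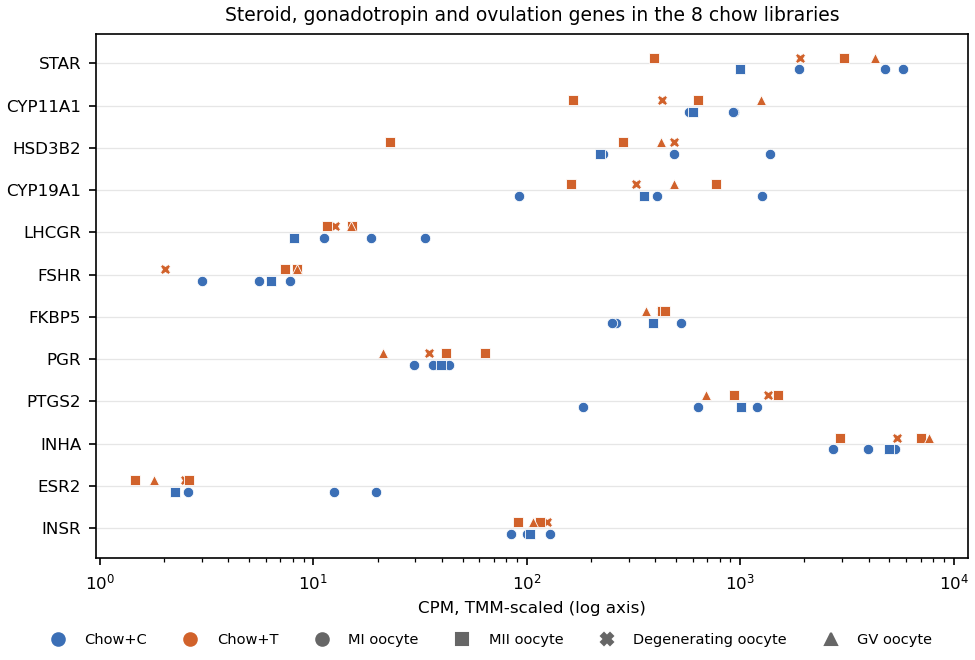
CPM (TMM-scaled, log axis) of 12 genes of steroid synthesis, gonadotropin response and ovulation in the 8 chow libraries; each point is 1 library, coloured by treatment and shaped by oocyte class. In every gene the groups overlap, and STAR spans 394 to 5809 CPM.

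All 12 genes of this panel that are reported here had 95% confidence intervals across 0. LHCGR, the luteinizing hormone receptor, was at 8.12 to 33.2 CPM in Chow+C and 11.6 to 15.2 CPM in Chow+T, and FSHR, the follicle-stimulating hormone receptor, at 3.01 to 7.798 and 2.02 to 8.38 CPM. PTGS2, the prostaglandin synthase induced at ovulation, was at 631, 1201, 182.9 and 1006 CPM in Chow+C and at 1350, 1497, 938.5 and 688 CPM in Chow+T. ESR2, oestrogen receptor beta, was at 2.59, 19.7, 12.5 and 2.25 CPM in Chow+C and at 1.47 to 2.61 CPM in Chow+T, with a difference of -2.14 (-4.59 to 0.31). The 2 high control values of ESR2 set that difference. Ovulatory response genes were positive in 14 of 23 cases (median 0.10, or -0.001 without Chow+C 3) and preovulatory granulosa genes in 5 of 16 (median -0.25), with 0 at an unadjusted p under 0.05 in either list.

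Cholesterol storage and efflux genes were positive in 15 of 16 cases with a median of 0.33 (0.19 without Chow+C 2), though 0 were at an unadjusted p under 0.05; APOE was at 1391, 567, 393 and 1374 CPM in Chow+C and 1540, 798, 1103 and 1621 CPM in Chow+T. Cholesterol synthesis and uptake genes were positive in 14 of 27 cases, with a median of 0.07 that was -0.16 without Chow+T 4 and 0.27 without Chow+T 2. Of 20 genes of fatty acid synthesis and lipid storage, 6 were positive, with a median of -0.29 that was -0.01 without Chow+C 3 and 0.09 with oocyte class as a term. MLXIPL (ChREBP), a sugar-sensing transcription factor of that list, was at 115.0 CPM in Chow+C 2 and at 0.24 to 1.93 CPM in the other 7 libraries, so that its difference of -4.84 was -0.34 without Chow+C 2. PPARGC1A, a coactivator of mitochondrial biogenesis in the fatty acid oxidation list, was low throughout, at 1.56 to 4.91 CPM in Chow+C and 0.65 to 1.26 CPM in Chow+T, without overlap (difference -1.63, SE 0.57, edgeR adjusted p = 0.658).

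Immediate-early genes, which respond within minutes to stimuli and to handling of cells, were unevenly distributed over the Chow+T libraries. Of 25 tested, 15 were positive and 4 were higher at an unadjusted p under 0.05 (NR4A3, MAFF, FOSL1 and KLF4). MAFF was already among the 15 higher genes chosen on this contrast. The median of the list was 0.16. That median had no stable direction: it was -0.20 without Chow+T 1, -0.05 without Chow+C 1 and 0.47 without Chow+T 4. NR4A3, an orphan nuclear receptor induced by luteinizing hormone, was at 0.67, 1.82, 0.59 and 2.53 CPM in Chow+C and at 6.40, 24.4, 20.4 and 0.36 CPM in Chow+T. KLF4 was at 28.5 to 55.8 CPM in Chow+C and at 126.4, 69.3, 164.8 and 20.4 CPM in Chow+T. Chow+T 4 lay below all 4 controls for both genes, and below the other Chow+T libraries in 14 of the 25. It was the lowest Chow+T library in 3559 of all 15019 tested genes. Other members went the other way: EGR1 was at 1342 to 3563 CPM in Chow+C and at 2744, 817, 350.2 and 1695 CPM in Chow+T.

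The circadian clock list was likewise uneven. Of 21 tested genes 14 were positive, 4 were higher at an unadjusted p under 0.05 and 0 lower, and the median was 0.13. CRY1, a repressor of the clock, was at 17.7, 16.4, 33.5 and 22.6 CPM in Chow+C and at 33.6, 84.2, 55.7 and 36.0 CPM in Chow+T, with Chow+C 3 and Chow+T 1 almost equal (difference 1.21, SE 0.36, edgeR adjusted p = 0.658). NOCT, a phosphatase with daily rhythm, was at 4.45 to 7.18 CPM in Chow+C and at 15.1, 34.1, 45.5 and 3.80 CPM in Chow+T. Other clock genes were highest in Chow+C 2: PER1 was at 38.6, 635, 104.2 and 145.4 CPM and NR1D1 at 40.8, 470.4, 17.0 and 82.3 CPM in Chow+C 1 to 4, beside 50.5 to 270.9 and 34.4 to 166.4 CPM in Chow+T. The list's median was 0.66 without Chow+C 2 and -0.004 without Chow+C 3, and no time of day is given for the aspirations.

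**Figure D4:**
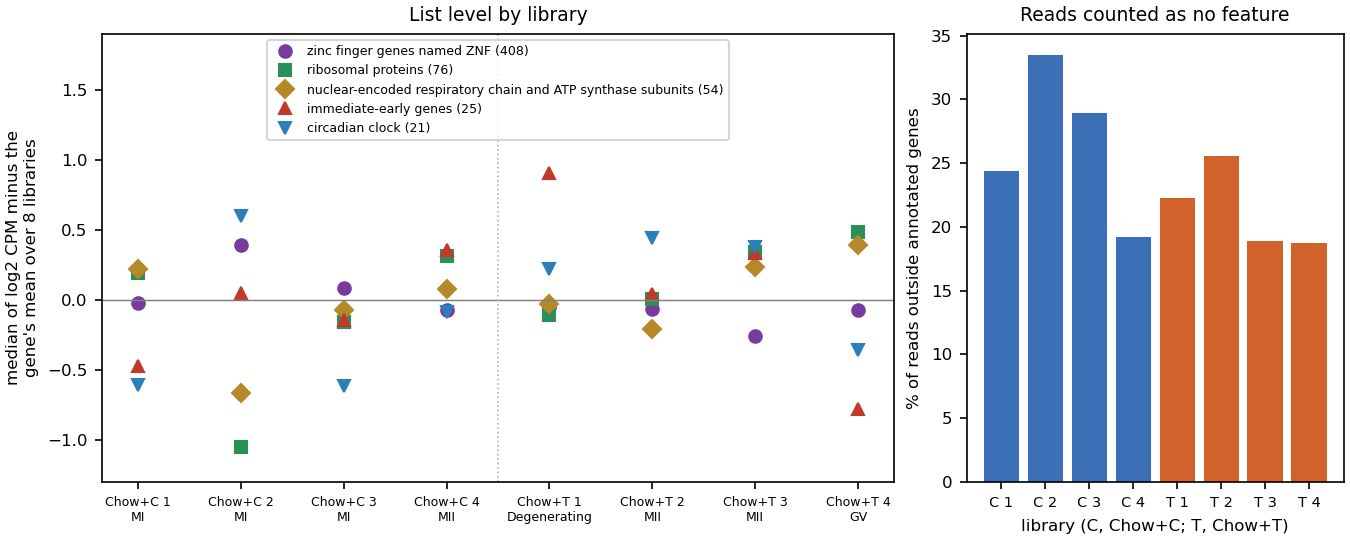
Left, the median over the members of 5 gene lists of log2 CPM minus each gene's mean over the 8 chow libraries, by library with its oocyte class; right, the percentage of reads outside annotated genes in each library. Chow+C 2 has the highest zinc finger, the lowest ribosomal protein and respiratory chain values and the largest share of reads outside genes, 33.5%.

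Zinc finger genes named ZNF had mostly negative differences, with Chow+C 2 the highest library. Of 408 tested, including those among the 15 lower genes chosen on this contrast, 115 had positive differences and the median was -0.25. At an unadjusted p under 0.05, 8 were higher and 59 lower. Without overlap, 1 lay above and 17 below. Relative to each gene's mean over the 8 libraries, their median was 0.39 in Chow+C 2, 0.09 in Chow+C 3, -0.02 in Chow+C 1, -0.07 in Chow+C 4, and -0.05, -0.07, -0.26 and -0.07 in Chow+T 1 to 4. The Chow+C 1 and Chow+C 4 values lay within or next to the Chow+T range. Chow+C 2 was the highest library in 200 of the 408 genes, 49.0%, beside 27.4% of all tested genes. The median difference was -0.11 without Chow+C 2. The share of reads outside genes moved with this list in Chow+C 2 and Chow+C 3, and its part in the result was not tested.

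Interferon response genes had negative differences in 19 of 23 cases, with 2 lower at an unadjusted p under 0.05 and a median of -0.64. Of the 23, 15 were highest in Chow+C 4, or 65.2%, beside 6.3% of all tested genes. The median was -0.11 without that library and -1.065 with oocyte class as a term. Chow+C 4 was the MII control and had the highest B lymphocyte, oocyte and smooth muscle marker sums of the 8 libraries. The part of these traits was not tested. MX1 was at 32.75, 6.33, 22.75 and 67.9 CPM in Chow+C and at 23.2, 45.2, 20.5 and 28.6 CPM in Chow+T, and USP18 was at 4.23 CPM in Chow+C 4 and at 0.15 to 1.08 CPM in the other libraries. IFI35 did not overlap between the groups, at 25.3, 46.8, 32.7 and 33.9 CPM in Chow+C and at 23.7, 19.7, 16.7 and 21.4 CPM in Chow+T (difference -0.77, SE 0.23, edgeR adjusted p = 0.658). IRF1 had a positive difference with overlapping groups, at 2.31 to 35.5 CPM in Chow+C and 6.56 to 91.7 CPM in Chow+T.

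**Figure D5:**
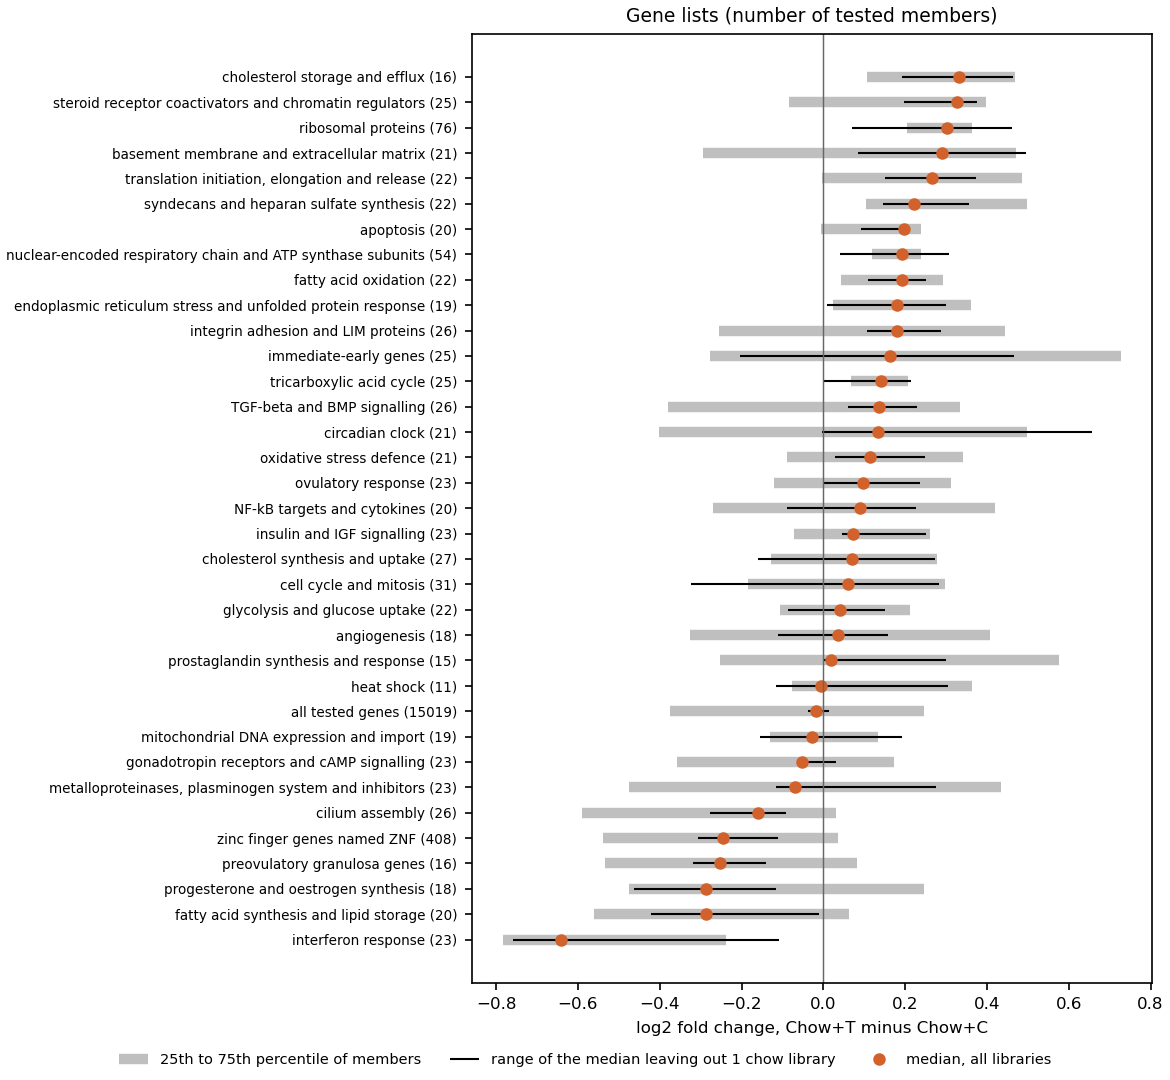
Median log2 difference between Chow+T and Chow+C (orange point) of 31 pathway lists, 3 gene families and all tested genes, with the 25th to 75th percentile of the members (grey bar) and the range of the median when 1 chow library is left out (black line). The interferon list has the lowest median, -0.64, with a range that reaches -0.11, and the circadian clock list spans -0.004 to 0.66.

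Lists of other cell types gave large medians, 2 of which 1 library set. The median over 13 macrophage and monocyte markers was 2.16 and was -0.22 without Chow+T 2, and the median over 9 tested oocyte markers was -2.87 and became 0.17 without Chow+C 4. Some blood-cell lists had negative medians under every omission of 1 chow library: -2.48 for B lymphocytes (-3.13 to -1.46), -1.76 for T and NK lymphocytes (-2.44 to -1.31), -1.57 for 4 platelet genes (-1.81 to -1.22) and -1.32 for neutrophils (-1.68 to -0.87). In each of these lists Chow+C 1 and Chow+C 4 had the highest median level of the 8 libraries, relative to each gene's mean. Leaving out 1 library always kept the other, so the unchanged sign does not show a difference shared by the controls. The T and NK lymphocyte median was -0.58 when the 8 chow libraries were fitted alone. Red cell and leukocyte lists changed sign. The erythroid median was -0.53, or 0.17 without Chow+C 1, and the leukocyte median was 0.18 (-1.265 to 0.73). The B lymphocyte median was the same with its 1 gene at 0 in all Chow+T libraries set to the bound that 3 counts over the group allow. That gene, FCRL1, had a fitted difference of -7.09, far from the median, so the bound could hardly move it and the check decides little. Of 10 tested B lymphocyte markers 0 had a positive difference and 3 were lower at an unadjusted p under 0.05. MS4A1, which encodes CD20, was at 1.79, 0.19, 0.08 and 3.98 CPM in Chow+C and at 0, 0, 0.08 and 0.15 CPM in Chow+T, all low levels.

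On the Western-style diet, in other animals, the fitted differences of the leading genes were smaller or of the opposite sign. These genes were chosen for a small p on chow, and smaller differences elsewhere are likely from that choice alone. SDC4 had a fitted difference of 0.37 (SE 0.22) there, MLF1 0.34 (SE 0.41) and FHL2 0.41 (SE 0.30), and the control levels were not those on chow: FHL2 was at 47.5 to 109.1 CPM in the 5 WSD+C libraries. RASSF9 had the opposite sign, 1.84 (SE 0.49) on chow and -1.18 (SE 0.40) on the Western-style diet. It was at 1.12 to 3.42 CPM in Chow+C and 5.37 to 11.8 CPM in Chow+T, and at 3.68 to 10.45 CPM in WSD+C and 0.98 to 3.52 CPM in WSD+T. LIMS1 likewise had 0.58 on chow and -0.40 (SE 0.16) on the Western-style diet.

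The difference between diets was tested itself, as the testosterone by diet interaction. By edgeR's quasi-likelihood test 0 genes passed after adjustment, the smallest adjusted p was 0.933, and 679 genes were at an unadjusted p under 0.05 where chance alone gives 751, among them RASSF9, LIMS1 and SDC4, each with an edgeR adjusted p of 0.933. Of the 15 leading higher genes 11 had the same sign on both diets, and of the 15 leading lower genes 9 had. These counts are given without the share over all tested genes, so they do not show whether the directions were shared beyond chance. These diets share no animals, and their oocyte classes differ as well.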

How the data were processed

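Libraries were polyA-selected and not directional, per the labels' protocols. The authors deposited raw read counts per gene in 1 table of 19 libraries. The submitters' processing notes name Trimmomatic and STAR. Genome build and gene models: not given in the sources used here, so no coordinates or sequences are printed. Without strand, overlapping genes cannot be told apart, and near-identical copies such as the alpha globins are uncertain. The table holds 32386 genes and 4 read classes that name no gene, which were left out of library sizes; genes held 49.1 to 69.1% of the reads of a chow library. Reads carry no molecular identifiers. Each library is 1 animal. Chow gene counts of 28832132 to 54804607 set only the counting error. The biological coefficient of variation was 0.583, estimated over all 19 libraries. Among these, WSD+C 4 had erythroid markers at 129100 CPM and granulosa markers at 2297 CPM, and WSD+T 6 had macrophage and monocyte markers at 2905 CPM. A fit without WSD+C 4 and WSD+T 6 also gave 0 genes past the adjusted threshold.

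The analysis used edgeR 4.0.16 in R 4.3.3: filterByExpr (minimum count 10, total 15) left 15019 genes, TMM scaling, and 1 robust quasi-likelihood fit of 4 treatment groups over all 19 libraries, two-sided, with Benjamini-Hochberg adjustment over all tested genes and a threshold of 0.05. DESeq2 1.42.0 and limma 3.58.1 were alternatives, beside other scalings, filters, libraries and covariates. Named genes are the 15 higher and 15 lower of smallest p with a symbol and a mean of at least 2 CPM, up to 3 members per list at an unadjusted p under 0.05, and a panel (genes withheld from the text are not reported here); others given as examples of a list were chosen after their values were seen. Of 60 lists (32 pathways, 14 cell types, 14 families by symbol) counts and medians are given without a test. The comparison, lists and rules were chosen with earlier results of these data known.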

Additional observations from a re-analysis of the deposited data

Results flagged for a closer look

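In 8 of 198 groups of 4 libraries checked, 1 library lay far from the other 3, where chance alone flags about 1 in 20 groups. Chow+C 1 was high for SDC4 at 19.7 CPM, and Chow+T 2 was low for FHL2 at 61.4 CPM; both groups of these genes remained apart. Chow+C 4, the MII control, was low for SMYD4 at 14.8 CPM, inside the Chow+T range. Chow+T 1 was high for TAF1C at 37.1 CPM and low for FSHR at 2.02 CPM. Chow+T 4 was low for FAM196A at 0.775 CPM and was the only Chow+T library with a read of FCRLA, at 0.0242 CPM. Chow+T 2 was low for SLC22A13, a solute carrier near the detection floor, at 0.0222 CPM.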

How the results depend on the processing

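No gene passed edgeR's adjusted threshold under RLE scaling, no filter, the 8 chow libraries alone, the covariates or any omission of 1 library (0 to 0 genes). DESeq2 called 4 genes, and 4 passed with MI and MII libraries only (SDC4, NOCT, JMJD1C and FAM53C, edgeR adjusted p = 0.029 to 0.0363). On chow, the fit of MI and MII libraries kept only Chow+T 2 and Chow+T 3, both MII, against controls of which only Chow+C 4 is MII. It dropped Chow+T 1 and Chow+T 4, the latter low for NOCT at 3.80 CPM, and does not separate oocyte class from treatment. Higher genes at an unadjusted p under 0.05 numbered 612 without WSD+C 4 and WSD+T 6 and 902 with MI and MII libraries only, against 348; lower genes numbered 421 by limma-voom, 450 in the 8 chow libraries, 336 with the mitochondrial share as a covariate and 270 with that of MT-CYB and MT-CO2, an alternative chosen after seeing the data, against 731. The cause of these shifts was not tested. Leaving out 1 chow library gave 154 to 593 higher and 272 to 1151 lower genes (593 and 1151 without Chow+C 4), and 273 to 692 genes above and 276 to 684 below without overlap, where 7 libraries are easier to separate. With oocyte class as a term, 4 panel genes changed sign: STAR from -0.49 to 0.28, CYP19A1 from -0.28 to 0.62, LHCGR from -0.39 to 0.48 and FSHR from 0.20 to -0.60. In that fit the GV term takes Chow+T 4 out of the comparison, and class is not separated from treatment. CYP19A1 and FSHR changed sign with the erythroid score, CYP19A1 also by limma-voom, INSR with MI and MII libraries only, and PGR with the share of MT-CYB and MT-CO2. Also in the panel, FSHR and INSR changed sign without Chow+C 1, CYP19A1 and LHCGR without Chow+C 3, and CYP11A1 and PGR without Chow+T 2. No paired analysis was possible because the labels give the groups no shared replicate numbers.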

Other observations

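Several mitochondrially encoded genes were nearly uncounted in 4 of the 19 libraries while others were counted throughout. Chow+C 1, Chow+C 3, Chow+T 2 and WSD+T 2 had 169 to 419 reads of MT-CO3, and the other 15 libraries had 99366 to 814561. In Chow+C 1 the same held for MT-ATP6 (40 reads), MT-ATP8 (17 reads) and MT-ND5 (764 reads), beside 234728 reads of MT-CYB and 213410 of MT-CO2. The ratio of MT-CO3 to MT-CYB was 0.000814 to 0.00125 in these 4 libraries, 0.377 in WSD+C 3 and 0.559 to 0.75 in the rest. Chow+T 4 had 49 reads of MT-ATP6 beside 16714 of MT-ATP8 and 176889 of MT-CO3, where the other libraries with MT-CO3 above that floor on chow had 35096 to 146367 reads of MT-ATP6. Differences in these genes between Chow+T and Chow+C are therefore not given.

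GPNMB, a glycoprotein of macrophages chosen after its values were seen, averaged 0.638 CPM in Chow+C (SD 0.422, n = 4) and 100.6 CPM in Chow+T (SD 198.3, n = 4), with 398 CPM in Chow+T 2 and 0.0372 to 1.77 CPM in the other 7 chow libraries; Chow+T 2 is the library with the most macrophage marker RNA.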
